A study of Homo sapiens with 6 samples.

Results

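CYP24A1 and the genes around it in vitamin D signalling were followed through 6 expression arrays of the established human colorectal carcinoma line HCT116. The 7 genes were CYP24A1, CYP2R1 and CYP27B1 (the hydroxylases), VDR, RXRA and RXRB (the receptor and its partners) and TRPV6 (a calcium channel and textbook target). They are 7 of the 22465 genes that the array represents with a row of a single symbol, and for each gene the row with the highest mean over the 6 arrays was kept. CYP24A1 was selected on its measured signal, which was far higher with the siRNAs than with the control, so its values are given as a description, with no test. The other 6 genes were added for their place in the pathway. All cultures were transfected with siRNA at 50 nM using a lipid reagent and harvested after 48 h. The 3 groups, with 2 arrays each, were the control siRNA labelled si(-), siH19-1 and siH19-2. Both latter siRNAs target H19, an imprinted long noncoding RNA, and the comparisons ask which genes respond to each siRNA and whether the responses differ. The labels call the 2 arrays of a group biological replicates and do not say how their cultures were separated, so a p-value measures the spread between these arrays.

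Vitamin D from skin or diet is hydroxylated by CYP2R1 and then by CYP27B1 to calcitriol, the active hormone. Calcitriol binds the vitamin D receptor (VDR), which pairs with a retinoid X receptor (RXRA or RXRB) and binds DNA at direct repeats of a short sequence. CYP24A1 is a mitochondrial cytochrome P450 that breaks calcitriol down, and its gene is known as a strongly induced VDR target in intestine and kidney, which closes a feedback loop. TRPV6 carries calcium into intestinal cells and is also induced through VDR.

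The promoter table from RefSeq (GRCh38.p14) matched 4 of the 7 members, RXRA, RXRB, CYP2R1 and TRPV6. Shown here are the 250 bases before the start of 4 genes: RXRB, which differed between the siRNAs; TRPV6, a classical target; PFDN4, the next protein-coding gene after CYP24A1 on chromosome 20; and FRK, whose pattern over the arrays was closest to that of CYP24A1 by the root mean square difference. Each was searched on both strands for the direct repeat that VDR and RXR bind, spelled AGGTCANNNAGGTCA, with up to 3 mismatches outside the gap. Capitals mark the 2 copies of the repeat in a match. RXRB lies at chr6:33200854-33201103 (minus strand), TRPV6 at chr7:142885746-142885995 (minus), PFDN4 at chr20:54207837-54208086 (plus) and FRK at chr6:116060892-116061141 (minus).
RXRB: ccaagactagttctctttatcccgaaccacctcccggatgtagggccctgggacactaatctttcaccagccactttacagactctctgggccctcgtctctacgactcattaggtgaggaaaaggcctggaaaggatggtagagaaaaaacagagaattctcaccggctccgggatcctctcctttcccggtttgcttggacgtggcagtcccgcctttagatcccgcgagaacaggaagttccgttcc
TRPV6: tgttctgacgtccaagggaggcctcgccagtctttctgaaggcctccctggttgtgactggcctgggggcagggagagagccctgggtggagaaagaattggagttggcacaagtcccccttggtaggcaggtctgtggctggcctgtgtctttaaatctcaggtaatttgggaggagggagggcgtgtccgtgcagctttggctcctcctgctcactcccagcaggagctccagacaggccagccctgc
PFDN4: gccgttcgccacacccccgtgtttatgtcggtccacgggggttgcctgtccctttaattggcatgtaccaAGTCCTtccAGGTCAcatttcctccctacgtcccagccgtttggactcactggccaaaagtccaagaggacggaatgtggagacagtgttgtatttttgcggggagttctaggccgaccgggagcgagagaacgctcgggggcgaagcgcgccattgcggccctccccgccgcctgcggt
FRK: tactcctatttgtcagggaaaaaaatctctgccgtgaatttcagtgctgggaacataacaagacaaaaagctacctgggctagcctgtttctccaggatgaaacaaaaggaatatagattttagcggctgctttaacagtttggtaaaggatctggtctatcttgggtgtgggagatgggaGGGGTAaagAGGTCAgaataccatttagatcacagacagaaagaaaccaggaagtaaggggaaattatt
A match with 3 mismatches was found in PFDN4, between 180 and 166 bases before its start, and in FRK, between 69 and 55 bases before it. None was found in the RXRB and TRPV6 windows, which says only that these letters are not there. Among windows that are not shown, 1 of 2 of RXRA also held a match with 3 mismatches, at chr9:134379045-134379294 (plus strand). RXRB has another window, at a different start, which held no match, and none was found in the 3 windows of CYP2R1. The windows of KLHL28, LIPH, SDC4 and PMAIP1, which were also close to CYP24A1 in pattern, held none either. CDH1, close in pattern too, had no window in the promoter table. Of 35116 promoter windows of this length in the table, 16.5% held such a match, so a match is common, and it is a description of the letters and not a binding site.

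The values are log2 signals that the authors made with RMA, so a step of 1 is a doubling of signal. A row was tested if its log2 signal was at least 5 in at least 2 arrays, which 24721 rows did. Of the members, 5 passed this filter and 2 (CYP27B1 and TRPV6) lay below it. As a check of the label, EPCAM, KRT8, KRT18 and KRT19, which mark epithelial cells, had mean signals of 11.23, 13.80, 12.24 and 11.54, whereas the differentiated colon markers KRT20, CDX2, VIL1, LGALS4, CEACAM5 and CDH17 lay between 3.46 and 4.21. Of 14 measured markers of other cell types, CD68 and COL1A1 passed the filter. The summed log2 signal of those 14 was 56.05 to 56.38 in control arrays, 58.26 to 58.50 with siH19-1 and 56.66 to 57.10 with siH19-2. Within it, CD68 had group means of 6.825, 7.84 and 6.745 in the same order. The sum of the 11 epithelial and colon markers was 76.56 to 77.03, 79.4 to 80.18 and 80.5 to 81.29. These 11 include CDH1, with group means of 6.81, 8.245 and 9.895. The part of either sum in the results was not tested. H19 was measured in a row shared with MIR675, with control arrays at 4.92 ± 0.14 (SD, n = 2), siH19-1 arrays at 4.95 ± 0.06 (SD, n = 2) and those of siH19-2 at 4.99 ± 0.05 (SD, n = 2). All these group means lay just under the filter value of 5, where a fall could go unseen. No fall of H19 was detectable, so the row does not show whether H19 was lowered. Directions rest on the array labels.

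CYP24A1 had a higher signal with siH19-1 than with the control, and a higher one again with siH19-2. Its log2 signal was 10.06 and 10.21 in the control arrays, 11.25 and 12.02 with siH19-1, and 13.83 and 14.14 with siH19-2. The 3 groups did not overlap, which held for 25.7% of all tested rows, and the siH19-1 arrays lay the farthest apart. The group means were 10.13 ± 0.11 (SD, n = 2), 11.63 ± 0.54 (SD, n = 2) and 13.98 ± 0.22 (SD, n = 2). Against the control this was a log2 difference of 1.5 with siH19-1, a 2.83-fold higher signal, and of 3.85 with siH19-2, a 14.4-fold higher signal. Ranked among the 24721 tested rows, the difference was the highest of all with siH19-2 (rank 1) and stood at rank 58 with siH19-1. The spread within siH19-1 mattered for that value, which was 1.89 without its replicate 1 and 1.11 without its replicate 2. In bulk RNA, more cells with the transcript and more transcript per cell cannot be told apart.

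CYP24A1 was 5.10-fold higher with siH19-2 than with siH19-1, a log2 difference of 2.35 (SE 0.27), and both siH19-2 arrays lay above both siH19-1 arrays. The siH19-2 arrays are among those whose signal singled the gene out, so this step is a description too and no p-value is read from it. By its size it stood at rank 21 of 24721. The difference ranged from 1.96 to 2.73 when each array was left out.

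**Figure D1:**
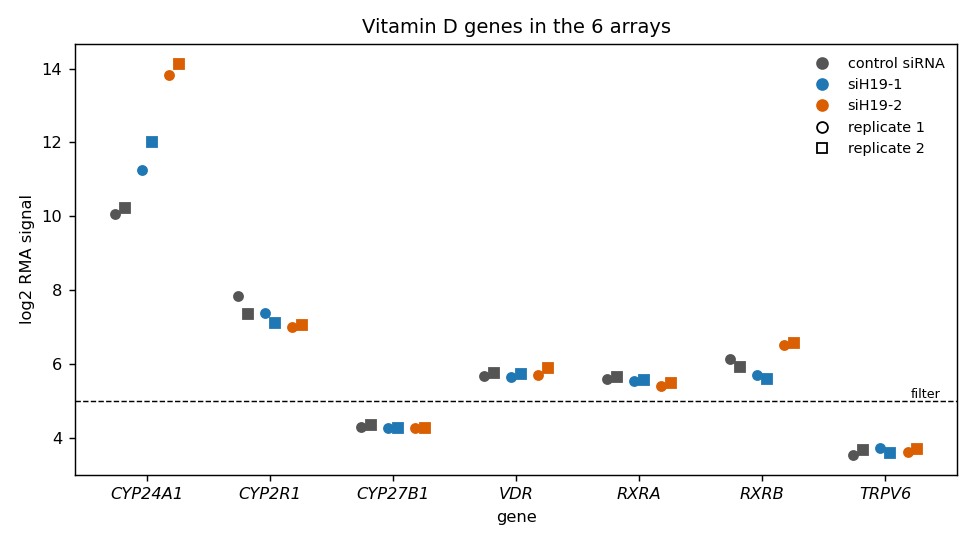
Log2 RMA signal (vertical axis) of the 7 genes in each of the 6 arrays. Grey is the control siRNA, blue siH19-1 and orange siH19-2, circles are replicate 1 and squares replicate 2, and the dashed line is the filter at 5. CYP24A1 climbs from 10.06 to 14.14 over the groups without overlap, RXRB is lowest with siH19-1 and highest with siH19-2, and CYP27B1 and TRPV6 lie below the line.

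The hydroxylases that make the hormone did not pass a test. CYP2R1, the main hydroxylase of the first step in the liver, had a log2 signal of 7.83 and 7.36 in control arrays, 7.38 and 7.11 with siH19-1, and 7.01 and 7.04 with siH19-2. Both siH19-2 arrays lay below all others, while the siH19-1 and control arrays overlapped. The log2 difference from the control was -0.35 with siH19-1 (SE 0.18, limma adjusted p = 0.338) and -0.57 with siH19-2 (SE 0.18, 95% interval -1.02 to -0.12, limma adjusted p = 0.0821). The control arrays decide how large this is: the siH19-2 value was -0.34 if control replicate 1 was left out and -0.80 if control replicate 2 was, and it passed in the latter (limma adjusted p = 0.0367). It also passed after quantile normalization (limma adjusted p = 0.0357), after scaling to the control probe sets (0.0447) and with the replicate number as a block (0.0431). Between the siRNAs the CYP2R1 difference was -0.22 (95% interval -0.67 to 0.23, limma adjusted p = 0.454).

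CYP27B1, which performs the activating hydroxylation, gave 4.29 and 4.33 in control arrays, 4.26 and 4.27 with siH19-1, and 4.26 in both siH19-2 arrays. All values lay under the filter, so it was not tested. With no filter its limma adjusted p lay at 0.854 or above in all comparisons.

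The receptor itself did not differ detectably. VDR was at 5.66 and 5.76 in control arrays, 5.63 and 5.71 with siH19-1, and 5.69 and 5.88 with siH19-2, and all groups overlapped. The VDR log2 difference from the control was -0.040 with siH19-1 (95% interval -0.31 to 0.23, limma adjusted p = 0.890) and 0.075 with siH19-2 (95% interval -0.20 to 0.35, limma adjusted p = 0.683). The latter interval leaves room for folds of 0.871 to 1.27 in signal, and between the siRNAs the difference was 0.12 (95% interval -0.16 to 0.39, limma adjusted p = 0.519). The sign of both VDR values against the control turned when single arrays were left out.

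RXRA, a retinoid X receptor and partner of VDR, was at 5.59 and 5.65 in control arrays, 5.53 and 5.55 with siH19-1, and 5.40 and 5.49 with siH19-2. All 4 arrays with an H19 siRNA lay below both control arrays, as did 14.3% of all tested rows. The RXRA difference was small and did not pass, at -0.080 with siH19-1 (limma adjusted p = 0.709) and -0.17 with siH19-2 (95% interval -0.41 to 0.06, limma adjusted p = 0.249).

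RXRB, the related receptor encoded in the major histocompatibility complex, moved to opposite sides of the control. It was at 6.14 and 5.92 in control arrays, 5.69 and 5.59 with siH19-1, and 6.52 and 6.57 with siH19-2. The 3 groups did not overlap. Of all tested rows, 6.74% had the siRNA arrays on opposite sides of the control with a call between the siRNAs, and 3.68% had them in this order. With siH19-2 RXRB rose by 0.52 on the log2 scale (SE 0.11, 95% interval 0.24 to 0.79, limma adjusted p = 0.0291), a 1.43-fold higher signal. With siH19-1 the difference was -0.39 and did not pass (95% interval -0.67 to -0.11, limma adjusted p = 0.115). Compared directly, RXRB was 1.87-fold higher with siH19-2 than with siH19-1 (log2 difference 0.91, SE 0.11, 95% interval 0.63 to 1.18, limma adjusted p = 0.00792).

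RXRB has 6 rows on the array, 5 of them on alternate haplotypes of chromosome 6, and the row kept is one of these. The other 5 rows gave log2 differences of 0.84 to 0.91 between the siRNAs, 0.46 to 0.54 for siH19-2 against the control and -0.42 to -0.36 for siH19-1, with the same calls. They are not independent measurements of the gene. The call against the control was lost without siH19-1 replicate 1 (limma adjusted p = 0.0583) or replicate 2 (0.0584), without siH19-2 replicate 1 (0.118) or replicate 2 (0.124), and without control replicate 2 (0.0877). The call between the siRNAs was lost without siH19-2 replicate 1 (0.0569) or replicate 2 (0.0503) and without siH19-1 replicate 2 (0.0612), though the log2 difference stayed between 0.85 and 0.96.

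TRPV6 showed no signal above the filter in any group. Its values were 3.52 and 3.65 in control arrays, 3.71 and 3.59 with siH19-1, and 3.62 and 3.70 with siH19-2, and all groups overlapped. With no filter its limma adjusted p lay at 0.803 or above in all comparisons, and a change at this signal level was not detectable.

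Counted over the 6 members other than CYP24A1, 0 passed in the mean of both siRNAs against the control, where 12.4% of tested rows passed, although 1 of them, CYP2R1, had an unadjusted limma p under 0.05 (0.0285). With siH19-1 the count was also 0, against 6.22% of all rows, and 1, RXRB, had an unadjusted limma p under 0.05 (0.0145). With siH19-2 it was 1 (RXRB), against 21% of all rows, and between the siRNAs 1 (RXRB), against 18.2%. Since 4 of the 6 were tested, shares of 0 or 1 of them lie near the background and are no result about these genes as a group.

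**Figure D2:**
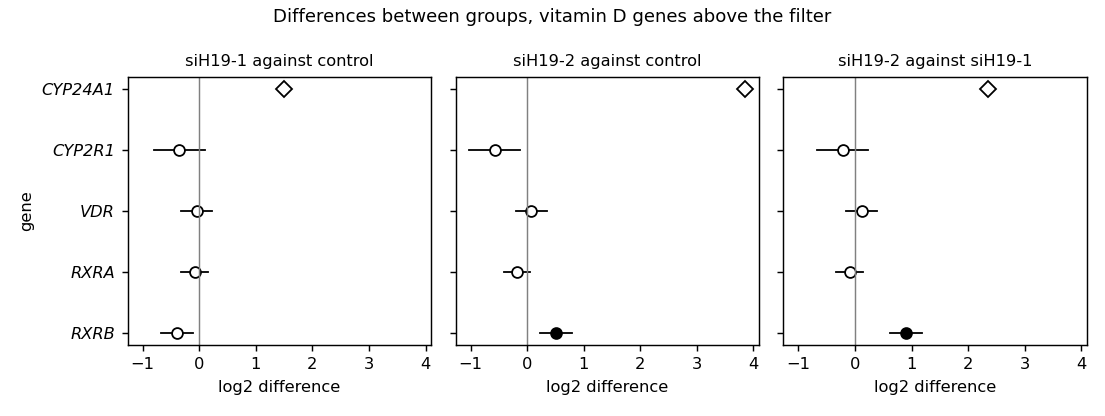
Log2 difference between groups (horizontal axis) for the 5 genes above the filter, with limma 95% intervals as lines. Filled circles passed at an adjusted p of 0.05, open circles did not, and open diamonds are CYP24A1, given with no test. CYP24A1 lies at 1.5, 3.85 and 2.35, RXRB is the gene with filled circles (0.52 and 0.91), and the intervals of VDR and RXRA cross 0 in every panel.

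Around these genes, enzymes and carriers of vitamin D metabolism were mostly below the filter. Of 13 listed genes 9 were matched to a single-symbol row and 4 were tested, CYP24A1, CYP2R1, DHCR7 and FDX1. DHCR7 turns the vitamin D precursor 7-dehydrocholesterol into cholesterol. It was at 9.57 and 9.63 in control arrays, 10.39 and 10.48 with siH19-1, and 10.81 and 10.61 with siH19-2, with no overlap between control and siRNA arrays. DHCR7 rose by 0.83 with siH19-1 (SE 0.12, limma adjusted p = 0.0219) and by 1.11 with siH19-2 (SE 0.12, limma adjusted p = 0.00482). The siH19-2 call held without each array in turn, and the siH19-1 call was lost without any 1 of the 6, with log2 differences of 0.79 to 0.88. FDX1, the electron donor of mitochondrial P450 enzymes such as CYP24A1, was at -0.17 with siH19-1 and -0.095 with siH19-2 and did not pass. A list of 11 P450 genes held CYP24A1 itself, CYP2R1 and mitochondrial or retinoid relatives, and 8 of the 11 lay below the filter. Of those tested, CYP26B1, which degrades retinoic acid, was at -0.025 with siH19-1 and -0.080 with siH19-2 without passing.

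In the VDR complex and its coregulators, members moved both ways. Of 15 tested genes, VDR, RXRA and RXRB included, 1 rose and 4 fell in the mean of both siRNAs, where 5.19% and 7.17% of all rows did, with a median log2 difference of -0.13 beside 0.015 for all rows. Without single arrays 1 rose and 1 to 2 fell. With siH19-1 0 rose and 2 fell (2.65% and 3.56% of all rows), and without single arrays 0 rose and 0 to 2 fell. With siH19-2 3 rose and 4 fell (10.2% and 10.8% of all rows), and without single arrays 1 to 3 rose and 1 to 4 fell. Between the siRNAs 5 were higher with siH19-2 and 1 lower (9.76% and 8.42% of all rows), with 1 to 5 and 0 to 1 without single arrays and 6 and 2 with the replicate block. The median of the 15 was -0.335 with siH19-1 and 0.07 with siH19-2, beside -0.02 and 0.045 for all rows. CDK8, the Mediator kinase, was at 10.21 and 9.79 in control arrays, 9.34 and 9.24 with siH19-1, and 7.93 in both siH19-2 arrays. It fell by 2.07 on the log2 scale with siH19-2 (SE 0.16, limma adjusted p = 0.00290), while its -0.71 with siH19-1 did not pass (limma adjusted p = 0.0623, or 0.0438 with the replicate block). MED13, which links that kinase to Mediator, rose by 1.44 with siH19-2 (limma adjusted p = 0.00270). The calls for CDK8 and MED13 with siH19-2 held without each array in turn.

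In the mean of both siRNAs the other falls were those of BAZ1B, SMARCA4 and NCOA1. BAZ1B, part of a remodelling complex that binds VDR, was at -0.61 with siH19-1 and -0.59 with siH19-2 (limma adjusted p = 0.0489 and 0.0259). SMARCA4, a remodelling ATPase, was at -0.39 with siH19-1 (limma adjusted p = 0.173) and fell by 0.71 with siH19-2 (0.0208). The steroid receptor coactivator gene NCOA1 was at -0.25 with siH19-1 (0.228) and fell by 0.63 with siH19-2 (0.0133). Of these calls, that of BAZ1B with siH19-1 was lost without any 1 of the 6 arrays, that with siH19-2 was kept in 1 of 6 such fits, and those of SMARCA4 and NCOA1 with siH19-2 were kept in 3 and 4. PDIA3, a disulfide isomerase of the endoplasmic reticulum that has also been described as a membrane binder of calcitriol, moved like RXRB. It was at 13.18 and 12.98 in control arrays, 12.33 and 12.13 with siH19-1, and 13.75 and 13.67 with siH19-2. PDIA3 fell by 0.85 with siH19-1 (limma adjusted p = 0.0265) and rose by 0.63 with siH19-2 (0.0260), calls that were each kept in 1 of 6 fits without an array, and the difference of 1.48 between the siRNAs passed (0.00438), also without each array in turn. SNW1, a VDR coactivator, and CCNC, the cyclin of the Mediator kinase, were higher with siH19-2 than with siH19-1, by 0.70 (limma adjusted p = 0.0281) and 0.49 (0.0431). The CCNC call was lost without any 1 array, and that of SNW1 without any 1 of the 4 arrays of the siRNAs.

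Of 34 genes listed as VDR targets 33 were matched and 14 tested, so most textbook targets gave no signal above the filter. Besides CYP24A1, 4 of 13 tested targets rose and 1 fell in the mean of both siRNAs, with a median of 0.17 beside 0.015 for all rows. Among the 4 is CLDN12, whose control arrays both lay under the filter, so that only arrays where it was higher brought it into the test. Leaving it out, 3 of 12 rose. KLK6 is 1 of these 3, and its mean joins opposite directions, -0.56 with siH19-1 and 1.95 with siH19-2. The shares of all rows that passed higher and lower were 5.19% and 7.17%. When single arrays were left out, the number that rose was 1 each time, and the number that fell was 0 or 1. CDH1, the E-cadherin gene, was at 6.62 and 7.0 in control arrays, 8.25 and 8.24 with siH19-1, and 9.92 and 9.87 with siH19-2. CDH1 rose by 1.44 with siH19-1 (SE 0.15, limma adjusted p = 0.0107) and by 3.08 with siH19-2 (SE 0.15, 0.00243), and it was higher with siH19-2 than with siH19-1 by 1.65 (0.00436). The siH19-1 call was lost without either siH19-1 array, and the other calls of CDH1 held without each array in turn.

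KLK6, a secreted serine protease gene, was at 9.10 and 8.92 in control arrays, 8.66 and 8.25 with siH19-1, and 11.11 and 10.81 with siH19-2. Unlike CYP24A1, its siH19-1 arrays lay below the control. KLK6 rose by 1.95 with siH19-2 (SE 0.19, limma adjusted p = 0.00389), was at -0.56 with siH19-1 (0.159, or 0.0431 with the replicate block), and differed by 2.50 between the siRNAs (0.00382). ATP2B1, the calcium pump of the plasma membrane that returns calcium to the blood in intestine, was at 11.87 and 11.65 in control arrays, 11.42 and 11.52 with siH19-1, and 10.14 and 10.35 with siH19-2. It fell by 1.51 with siH19-2 (SE 0.14, limma adjusted p = 0.00367), opposite to CYP24A1, and was at -0.29 with siH19-1 (0.294). CDKN1A, a cell cycle inhibitor gene, rose by 0.74 with siH19-1 (limma adjusted p = 0.0289) and by 0.48 with siH19-2 (0.0433). Both CDKN1A calls were lost without any 1 array. The tight junction gene CLDN12 was at 4.59 and 4.49 in control arrays, 5.07 and 4.79 with siH19-1, and 5.47 and 5.27 with siH19-2, and no p is given for it because the filter selected it on its siRNA arrays. The KLK6 and ATP2B1 calls with siH19-2 held without each array in turn. With siH19-1 alone 2 of the 13 targets rose and 0 fell, where 2.65% and 3.56% of all rows did. The median with siH19-1 was -0.025 beside -0.02 for all rows. With siH19-2 alone 4 of the 13 targets rose and 1 fell, where 10.2% and 10.8% of all rows did. CLDN12 is again 1 of the 4, and without single arrays 2 to 4 rose.

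Of 9 tested receptors that share RXR as a partner, 0 rose and 2 fell in the mean of both siRNAs, where 5.19% and 7.17% of all rows did. Without any 1 of the 6 arrays 0 fell. With siH19-2 1 rose and 2 fell (10.2% and 10.8% of all rows), with 0 to 1 and 0 to 2 without single arrays, and between the siRNAs 2 were higher and 0 lower (9.76% and 8.42%), with 1 to 2 higher without single arrays. With siH19-1 0 passed in limma, where 2.65% of all rows rose and 3.56% fell, and NR4A2 was at an adjusted p of 0.0957. PPARD and PPARG, receptors for fatty acids and their derivatives, fell with siH19-2, by 0.81 (limma adjusted p = 0.0239) and 0.61 (0.0154). Each of these was kept in 3 of 6 fits without an array. NR4A2, an immediate-early orphan receptor gene, was at 9.58 and 8.85 in control arrays, 8.33 and 8.31 with siH19-1, and 11.10 and 11.00 with siH19-2. It rose by 1.83 with siH19-2 (limma adjusted p = 0.00691), a call lost without siH19-2 replicate 1, and differed by 2.73 between the siRNAs (0.00436). Its relative NR4A1 was at -0.36 with siH19-1 and 0.25 with siH19-2, neither past the threshold, and the difference of 0.61 between the siRNAs passed (0.0178), though not without any 1 of the 4 siRNA arrays. RARG, a retinoic acid receptor gene, was at 0.10 with siH19-1 and 0.33 with siH19-2 and did not pass.

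Of 11 tested genes reported to regulate transcription of CYP24A1 or VDR, 0 rose and 1 fell in the mean of both siRNAs, with a median of -0.12, where 5.19% and 7.17% of all rows rose and fell. The 1 is DNMT3B, whose call in the mean was kept in 1 of 6 fits without an array. DNMT3B, a DNA methyltransferase gene, fell by 0.76 with siH19-2 (limma adjusted p = 0.0139), a call lost without either siH19-2 array. The repressor gene ZEB1 was 0.50 lower with siH19-2 than with siH19-1 (limma adjusted p = 0.0379), but not after median centring, after scaling to the control probe sets or without any 1 of the 4 siRNA arrays. ETS1, also among the 11, had both siH19-2 arrays under the filter, and without it the median of the other 10 in the mean of both siRNAs was -0.0975. Near CYP24A1 on chromosome 20, 3 other genes were tested. PFDN4, a subunit of the prefoldin chaperone, was at 6.18 and 6.28 in control arrays, 6.69 and 6.83 with siH19-1, and 6.90 and 6.67 with siH19-2. PFDN4 rose by 0.56 with siH19-2 (limma adjusted p = 0.0287), was at 0.53 with siH19-1 (0.0646), and was at 0.025 between the siRNAs (0.909). Its siH19-2 call was lost without any 1 of the 6 arrays. ZNF217 was at -0.28 and -0.32 and BCAS4 at -0.030 and -0.075 with siH19-1 and siH19-2, without passing. BCAS1, the protein-coding neighbour on the other side, lay below the filter.

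**Figure D3:**
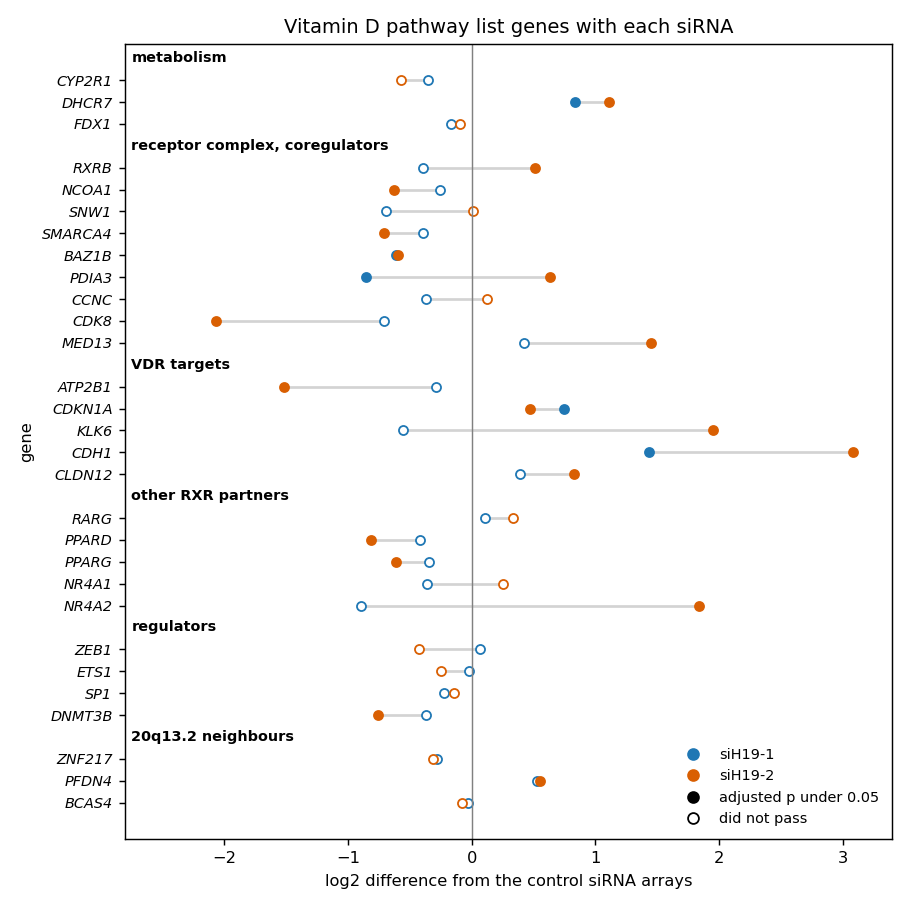
Log2 difference from the control siRNA arrays (horizontal axis) of the listed genes that passed in a comparison or had the smallest p, with siH19-1 in blue and siH19-2 in orange. Filled circles passed at an adjusted p of 0.05, and both siRNAs share the control arrays. CLDN12 passed the filter on its siRNA arrays alone, so its filled circle with siH19-2 is not read as a call. CDH1 and DHCR7 lie to the right with both siRNAs, ATP2B1 and CDK8 lie far to the left with siH19-2, and RXRB, PDIA3, KLK6 and NR4A2 straddle 0.

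Finally, the genes whose pattern was most like that of CYP24A1 were found by the root mean square difference of the 6 log2 values, each gene centred on its control mean. Over 10483 other genes, FRK was closest with a difference of 0.45, followed by CDH1 with 0.51, KLHL28 with 0.84, LIPH with 0.87, SDC4 with 0.89 and PMAIP1 with 0.95. FRK, a tyrosine kinase gene, was at 6.19 and 6.13 in control arrays, 7.05 and 7.11 with siH19-1, and 10.10 and 9.70 with siH19-2. SDC4, a cell surface proteoglycan gene, was at 9.32 and 9.35, 10.28 and 10.65, and 11.75 and 11.69 in the same order. In both, the groups did not overlap and kept the order of CYP24A1, which follows largely from picking genes for their closeness to it. No overlap between the 3 groups, in any order, held for 25.7% of all tested rows. Across the 6 arrays, 561 of the 10483 genes had a Pearson r above 0.9 with CYP24A1. With 3 groups of 2 arrays such an r reflects mostly the 3 group means, and it is given as a description. None of the 6 closest genes is a hydroxylase or receptor of the vitamin D pathway. The rule returns genes that rose strongly, as no tested member except CYP24A1 did, so their absence follows from the rule. CDH1 is on the target list, which was chosen with earlier results of these data known.

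**Figure D4:**
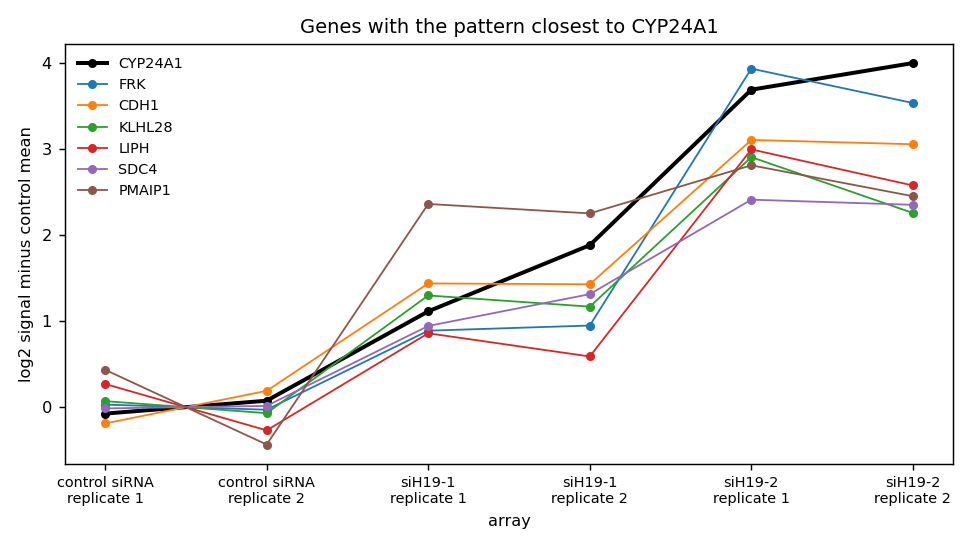
Log2 signal minus the control mean (vertical axis) in each of the 6 arrays for CYP24A1 (thick black line) and the 6 genes closest to it. Lines join the arrays only to guide the eye. CYP24A1 reaches a log2 difference of 3.85 with siH19-2, FRK 3.74 and CDH1 3.08, while PMAIP1 is nearly as high with siH19-1 (2.31) as with siH19-2 (2.63).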

How the data were processed

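Expression was measured in 6 arrays of HCT116 cells, 3 groups of 2. The deposited values are log2 signals that the authors made with Affymetrix Expression Console and RMA, per the submitters' processing notes; versions and the genome build are not given in the sources used here. RMA brings arrays to a common distribution, which removes shifts shared by all genes. The table holds 67528 transcript clusters (the rows tested) and 2995 other rows, whose array medians set the scaling called control probe sets. Symbols came from the platform annotation, updated through RefSeq. The 24721 clusters that reached 5 on the log2 scale in 2 or more arrays entered a linear model of the 3 groups (limma 3.58.1, R 4.3.3, eBayes with trend, 3 residual and 2.75 prior degrees of freedom). P-values are two-sided, with Benjamini-Hochberg adjustment over these clusters and a threshold of 0.05. The number of arrays limits the precision. Deviations of same-numbered arrays from their group means correlated at 0.286, 0.203 and 0.198 in the 3 pairs of groups, so results that change with the replicate number as a block are given with it; the labels name no shared batch. The fit was run on simulated arrays with independent noise and large changes in siH19-2 alone. That run does not bear on small changes or on correlated arrays. List genes were named if they passed in any comparison or were among the 4 of smallest p per list; the 6 genes most like CYP24A1 were named too. Members and lists were chosen with earlier results of these data known. A planned test of CYP24A1 between the siRNAs is not reported, since the siH19-2 arrays took part in its selection. Listed genes with no single-symbol row were not analysed here.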

Additional observations from a re-analysis of the deposited data

Results flagged for a closer look

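For some genes all arrays of siH19-1 and all arrays of siH19-2 lay on opposite sides of both control arrays, and the direct comparison of the siRNAs passed in the limma fit. The log2 difference between siH19-2 and siH19-1 was 0.91 for RXRB (limma adjusted p = 0.00792), 1.48 for PDIA3 (0.00438) and 0.49 for CCNC (0.0431). It was 2.50 for KLK6 (0.00382), 0.61 for NR4A1 (0.0178) and 2.73 for NR4A2 (0.00436). In these 6 genes the siH19-2 arrays were the higher ones. They were found by looking through 55 tested members and listed genes. Of all 24721 tested rows 6.74% met the same conditions in either order and 3.68% in this order, beside 6 of 55 here. That count was not tested against these shares, and members and lists were chosen with earlier results of these data known. The number found is therefore not read as particular to these genes. Both siRNAs were set against the same 2 control arrays.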

How the results depend on the processing

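Given as a description because the gene was selected on its rise, the log2 difference of CYP24A1 kept its direction under all alternatives run. Between the siRNAs it was 2.35, also with no moderation of the variance, where its standard error alone changed, and 1.96 to 2.73 without single arrays. Of the 6 other members, 1 (CYP2R1) passed in the mean of both siRNAs with scaling to the control probe sets (limma adjusted p = 0.0499). For siH19-2 against the control the count of 1 became 0 with no filter, median centring, no moderation or only the arrays compared, and 2 with quantile normalization, scaling to the control probe sets or the replicate block, each time with CYP2R1 added. Without single arrays it was 0 to 1, called for RXRB without control replicate 1 and for CYP2R1 without control replicate 2. The count between the siRNAs was also 0 to 1 without single arrays, and 0 with no moderation. The values that changed sign were near 0 and did not pass. In the mean of both siRNAs VDR was at -0.035 with median centring and between -0.033 and 0.068 without single arrays, and RXRB between -0.048 and 0.17. VDR lay between -0.090 and 0.010 with siH19-1 and between -0.020 and 0.17 with siH19-2. RXRA between the siRNAs was at 0.055 with scaling to the control probe sets, which shifts the median of all rows by 0.15 there. The causes were not tested. With the replicate block CYP2R1 passed for siH19-2 (limma adjusted p = 0.0431), and no other call of a member changed. Of the listed genes, CDK8 and KLK6 with siH19-1, ZEB1 with siH19-2, and DNMT3B, NCOA1 and NCOA2 between the siRNAs passed with the block, and no call was lost. CLDN12 is left out of these because the filter selected it on its siRNA arrays. Ranked by Pearson correlation in place of the root mean square difference, the 6 genes most like CYP24A1 shared only SDC4 with the list given (1 of 6). Signals under the filter limit what can be said of CYP27B1 and TRPV6.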
